A study of Homo sapiens with 6 samples.

Results

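Myeloid C-type lectin genes are described here as they were expressed in FUJIOKA, a cell line derived from acute myeloid leukaemia. The 10 genes were CLEC7A, CLEC4A, CLEC4D, CLEC4E, CLEC5A, CLEC10A, CLEC11A, CLEC12A, CLEC2B and CLEC2D, and each matched exactly 1 of the 63236 genes that the authors deposited by its symbol. CLEC7A was selected on its fold change in the authors' comparison, seen in an earlier analysis of these data, and the other 9 were added because they belong to the same family of genes. Membership of the list is therefore no finding. The study sequenced mRNA of 3 libraries with a non-targeting scrambled shRNA (shNEG) and 3 libraries with a SPINK2 shRNA (shSPINK2). In both groups the shRNA sat in a lentiviral vector in stably transduced, puromycin-selected cells and was switched on with doxycycline. All libraries come from 1 cell line, and nothing in the labels says whether they were separate cultures.

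The authors' table gives for each gene 1 mean normalized count over all 6 libraries, that is, reads divided by the size factor of their library and averaged over both groups. Its other columns hold the authors' comparison of shSPINK2 with shNEG and were not used here. The values below are therefore levels and reads in single libraries, and no difference between the groups is given. Over all genes the means sum to 38425214 normalized counts. Of the 63236 genes, 16131 (25.5%) had a mean of at least 10, which was taken as detected.

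C-type lectins share a protein fold that was first known for binding sugars with the help of calcium. On myeloid cells many of them are surface receptors that sense fungal, mycobacterial or host ligands. Some activate the cell through the kinase SYK and the adaptor CARD9, either by a motif of their own or through FCER1G or TYROBP, whereas others carry an inhibitory motif that recruits the phosphatases PTPN6 and PTPN11. A further few are ligands of receptors on natural killer cells. CLEC7A, also known as Dectin-1, is the receptor for fungal beta-glucan and is found on monocytes, macrophages and neutrophils.

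Among the 10 genes 7 were detected and 3 lay below a mean of 10, namely CLEC10A, CLEC7A and CLEC4A. The share detected among all protein-coding genes was 63.1%. The 10 means added up to 47460 normalized counts, of which CLEC2B held 49.5% and CLEC5A 32.4%. The family was thus spread over a very wide range in a single cell line, from genes among the most abundant to a gene with 3 reads in all 6 libraries together.

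Levels of different genes were compared per kilobase of merged exons. CLEC2B was first with 9378 normalized counts per kilobase, above 99.3% of the protein-coding genes with any reads. CLEC5A followed with 3730, CLEC11A with 1580 and CLEC12A with 1442 normalized counts per kilobase. Below them CLEC4D reached 549 and CLEC4E 136 normalized counts per kilobase. The last of these lay close to the median of 114 over all protein-coding genes with any reads. CLEC2D had 25.6, CLEC10A 3.89, CLEC7A 1.90 and CLEC4A 0.385 normalized counts per kilobase, all well under that median. CLEC11A and CLEC12A differed by a ratio of only 1.10 per kilobase and changed places when the length of the canonical transcript was used instead, at 1636 for CLEC11A and 3019 for CLEC12A. No spread over libraries could be computed for the 6 genes from CLEC2B to CLEC4E, so whether these neighbours differ beyond such a spread was not tested.

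**Figure D1:**
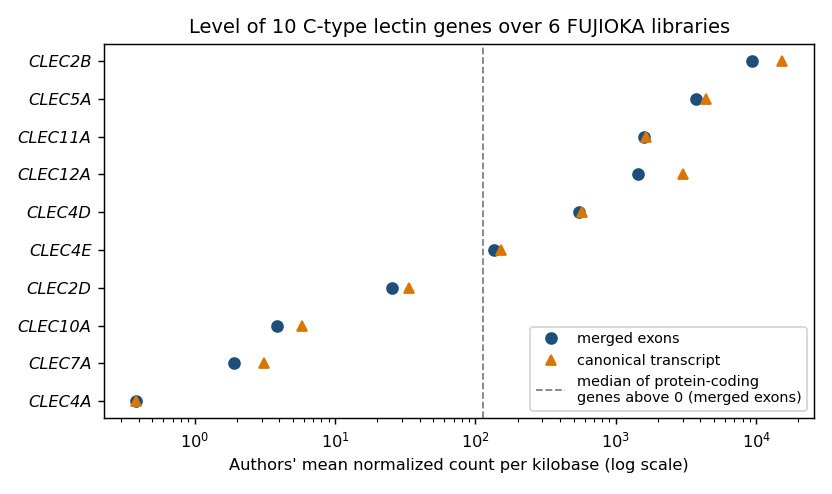
Level of each gene as the authors' mean normalized count per kilobase on a log axis, with the length taken from merged exons (circles) or from the canonical transcript (triangles). CLEC2B, CLEC5A, CLEC11A, CLEC12A, CLEC4D and CLEC4E sit to the right of the dashed line, which marks the median of 114 over protein-coding genes above 0, and the other 4 genes sit to its left.

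The activating receptors were spread over the order per kilobase, with CLEC5A in place 2, CLEC4D in place 5, CLEC4E in place 6 and CLEC7A in place 9. CLEC5A, which signals through the adaptor TYROBP, had a mean of 15400 normalized counts and lies on the minus strand of chromosome 7 from 141927357 to 141947007 (GRCh38). CLEC4D and CLEC4E, which pair with each other and with FCER1G and sense the mycobacterial cord factor, are direct neighbours on chromosome 12, with 10938 bases between them. Their means were 1125 normalized counts for CLEC4D, from 8509475 to 8522366, and 321 for CLEC4E, from 8533305 to 8540905. Per kilobase CLEC4D exceeded CLEC4E by 4.04-fold. CLEC7A, by contrast, had a mean of 7.96 normalized counts. Per kilobase, CLEC5A was 1962-fold higher than CLEC7A, which needs no adaptor because its own tail carries the motif that recruits SYK. The ratio was 1404 by the canonical transcript and 2541 by its coding length.

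The signalling genes that these receptors use were detected throughout. SYK, the kinase, had a mean of 17039 normalized counts, and PRKCD, the kinase that acts on CARD9, had 10513. The phospholipase gene PLCG2 had a mean of 3776 normalized counts. For the adaptors the means were 1303 for FCER1G and 1239 for TYROBP, which were close to each other per kilobase as well, at 1352 and 1366. The complex downstream of SYK was represented by CARD9 at 1044, MALT1 at 1020 and BCL10 at 708 normalized counts. All 22 genes of a list of signalling genes downstream of C-type lectins were detected, from 6.17 normalized counts per kilobase for SRC to 3271 for SYK, against the 1.90 of CLEC7A.

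The inhibitory receptors also lay apart, with CLEC12A in place 4 and CLEC4A in place 10 per kilobase. CLEC12A, an inhibitory receptor known as a surface antigen of acute myeloid leukaemia blasts, had a mean of 4694 normalized counts and lies on chromosome 12 from 9951316 to 9995694. CLEC4A, whose tail also holds an inhibitory motif, had 0 reads in 4 libraries, 1 read in another and 2 reads in the remaining one. These 3 reads carry a 95% Poisson interval from 0.619 to 8.77, which covers counting error only. CLEC4A shares 893 of its 1296 exon bases with an annotated lncRNA on the same strand, ENSG00000284697, which had a mean of 1.82, and how the authors' counting treated reads in shared exons is not given in the sources used here. The phosphatase genes had means of 7816 normalized counts for PTPN6 and 10518 for PTPN11.

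CLEC2B and CLEC2D encode ligands of natural killer cell receptors. CLEC2B, the ligand of the KLRF1 receptor, had the highest mean of the 10 genes, 23473 normalized counts, which is 0.0611% of the sum over all genes. It lies on the minus strand of chromosome 12 from 9852369 to 9869386. CLEC2D, the ligand of the KLRB1 receptor, lies 152815 bases away, from 9664969 to 9699553, and had a mean of 178 normalized counts. The ratio of CLEC2B to CLEC2D depended on the length used, at 366 per kilobase of merged exons, 453 by the canonical transcript and 169 by its coding length. The receptor genes themselves were low, with means of 24.2 for KLRF1 and 2.47 for KLRB1, which had 15 reads in the 6 libraries together.

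CLEC11A, a secreted growth factor rather than a receptor, had a mean of 2249 normalized counts and lies on chromosome 19 from 50723364 to 50725708. ITGA11, the integrin subunit through which CLEC11A is known to act on bone cells, had a mean of 2.83 normalized counts. CLEC10A, a galactose-type receptor of dendritic cells and macrophages, had a mean of 9.60 normalized counts and lies on the minus strand of chromosome 17 from 7074537 to 7080307. It shared the bottom of the order with CLEC7A and CLEC4A.

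A mean of whole reads divided by 6 known size factors can be taken apart into the reads of each library when only 1 set of whole numbers gives it. The size factors were read from the means shared by genes with 1 read in 1 library, 546 to 662 such genes for each library, and ran from 0.985 to 1.033. The 6 libraries are named A to F in the order of their size factors. They carry no sample name, and no group was assigned to them. SPINK2, the targeted gene, lies on chromosome 4 from 56809860 to 56821742 and had 6 reads in library A, 53 in B, 63 in C, 56 in D, 9 in E and 7 in F.

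CLEC7A had 5 reads in library A, 14 in B, 10 in C, 9 in D, 2 in E and 8 in F. Library B was the highest and library E the lowest, and after division by the size factors they differed by 7.07-fold. The 48 reads have a 95% Poisson interval from 35.4 to 63.6. The variance of the normalized reads was 2.16 times their mean, where counting error alone gives a ratio near 1. Without library E the ratio was 1.17, and the mean was 9.16 instead of 7.96. Of the genes with a mean from 6 to 12, 1834 of 1856 could be taken apart in the same way. Their median ratio was 1.18. CLEC7A was selected on a difference between these same libraries, so its ratio is a description and was not ranked among them.

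CLEC10A had 8 reads in library A, 7 in B, 9 in C, 16 in D, 5 in E and 13 in F. Its highest library, D, was thus not the highest one of CLEC7A, while library E was the lowest for both genes. The variance was 1.67 times the mean, which 28.4% of genes of like mean exceeded, and it fell to 0.952 times the mean without library D. The 58 reads of CLEC10A have a 95% Poisson interval from 44 to 75, which covers counting error only. It overlaps that of CLEC7A, but these totals are not divided by gene length. Per kilobase of merged exons CLEC10A was 2.05-fold above CLEC7A, against 1.85-fold by the canonical transcript and 1.03-fold by its coding length. Whether these genes differ beyond their spread over libraries was not tested.

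CLEC2D was searched differently. With 182 reads in library A, 178 in B, 154 in C, 180 in D, 181 in E and 201 in F, its highest and lowest libraries differed by 1.26-fold after division by the size factors. These reads were the only set with every library within 0.2 of the mean, a narrower search than for the other genes that was chosen after seeing the data. Less even sets were not searched, so the small spread of CLEC2D cannot be set against that of CLEC7A and CLEC10A. The 6 higher genes, from CLEC4E upwards, have means over 200 and were not taken apart.

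**Figure D2:**
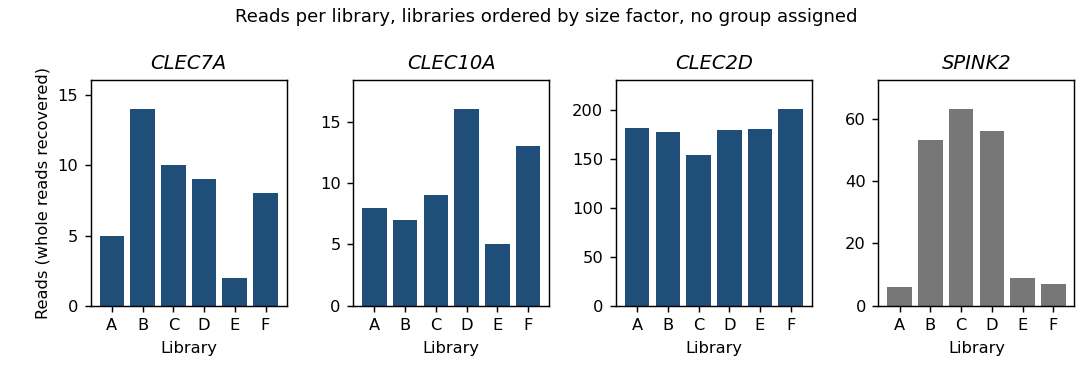
Whole reads of CLEC7A, CLEC10A, CLEC2D and, in grey, SPINK2 in each of the 6 libraries A to F, on a linear axis from 0 that differs between panels. CLEC7A runs from 2 to 14 reads and CLEC10A from 5 to 16, CLEC2D, searched only within 0.2 of its mean, from 154 to 201, and SPINK2 has 6, 9 and 7 reads in libraries A, E and F and 53, 63 and 56 in B, C and D.

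**Figure D3:**
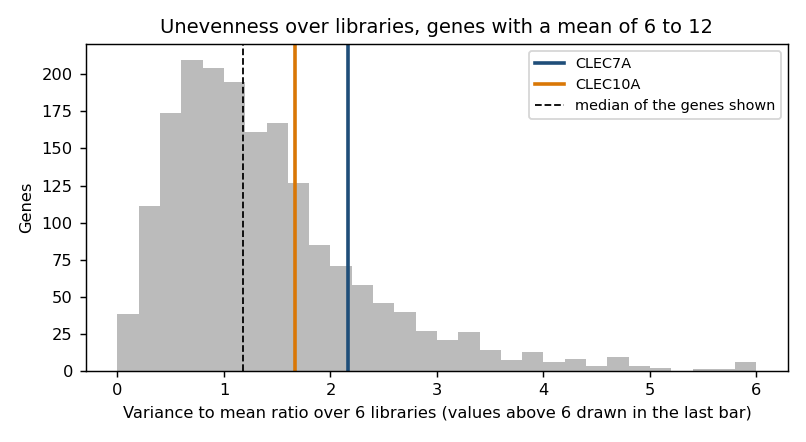
Variance to mean ratio of normalized reads over the 6 libraries for 1834 genes with a mean from 6 to 12, as a histogram with the number of genes on the vertical axis. CLEC10A at 1.67 lies to the right of the median of 1.18 and below 3.26, the 95th percentile of these genes. CLEC7A, drawn at 2.16, was selected on a difference between these libraries, so its place among these genes is no finding.

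Of the 10 genes 7 lie on the short arm of chromosome 12, where many lectin-like receptor genes stand side by side. From the start of CLEC4A to the end of CLEC7A this stretch spans 2007 kb, from 8123617 to 10130258, and holds 29 protein-coding genes of the table. Levels differed widely along the stretch. CLEC7A, from 10116777 to 10130258 on the minus strand, and CLEC12A are separated by 121082 bases. Per kilobase of merged exons CLEC12A was 759-fold above CLEC7A, against 964-fold by the canonical transcript and 549-fold by its coding length. The protein-coding genes between them had means of 170 for CLEC12B, 132 for CLEC9A and 1.82 for CLEC1A. CLEC2B and CLEC12A have 81929 bases between them, and the means of both were at the upper end of the order. Of the 22 other protein-coding genes in the stretch 13 were detected, and 4 had a mean of at least 1000.

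**Figure D4:**
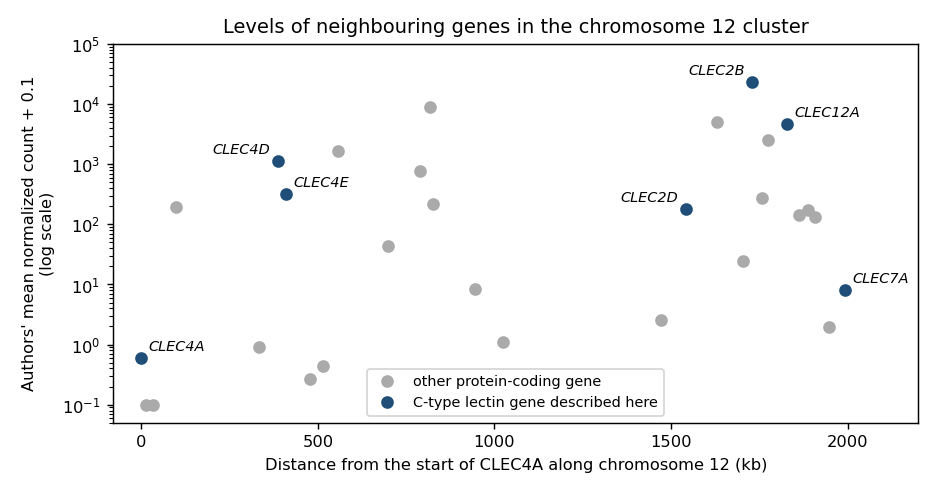
Authors' mean normalized count of 29 protein-coding genes, with 0.1 added and on a log axis, against their distance in kb from the start of CLEC4A on chromosome 12. The 7 lectin genes described here are named, with CLEC2B at 23473 and CLEC12A at 4694 near the right end, CLEC7A at 7.96 beyond them and CLEC4A at 0.499 at the left end.

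Other genes of the wider family were also uneven. A list of 40 further C-type lectin and lectin-like genes held 20 that were detected, 12 with a mean above 0 and under 10, and 8 at 0. The highest of them were MRC2 with a mean of 6718 normalized counts, CD69 with 5070, CD93 with 3962, CLEC2A with 2516 and THBD with 1125. CLEC6A, a fungal mannan receptor gene near CLEC4D, had 5 reads in the 6 libraries together.

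The labelled cell type was checked against marker genes. Of 10 myeloid blast markers 9 were detected, with AZU1 the highest at 35566 normalized counts, whereas KIT had a mean of 0.666. The lowest of those detected was CD34, with a mean of only 19.6 and 2.12 normalized counts per kilobase. Among 8 monocyte markers 5 were detected, LYZ at 44097 the highest, while CD14 had a mean of 2.83 and CD300E and VCAN were at 0. None of 5 T cell markers reached a mean of 10, and the erythroid markers summed to 1.65. NKG7 and GNLY, which stand among the NK cell markers, had means of 5217 and 146, whereas NCAM1 and NCR1 were at 0. The part that other cell types play in the levels of the lectin genes was not tested.

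The shRNAs were compared with the transcripts of the 10 genes, since CLEC7A was found to share a run of bases with the target of one of them. The labels name 2 SPINK2 shRNAs and the study's methods name shRNA1 alone, and which of them the shSPINK2 libraries carried is not stated. Both targets have 21 bases and lie in the coding sequence of SPINK2, on the minus strand of chromosome 4. The target of shRNA1 crosses from exon 3 (56811685 to 56811688) into exon 4 (56810168 to 56810184), and that of shRNA2 from exon 2 (56820536 to 56820537) into exon 3 (56811776 to 56811794). They are shown 5′ to 3′ because the comparison rests on them, with the target of shRNA2 above the stretch of CLEC7A and capitals where both have the same base.
shRNA1 target: tcagggaaggtggtcataata
shRNA2 target: cGccAAACTGCTCTCAgtatA
CLEC7A stretch: aGggAAACTGCTCTCAtaggA

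The canonical CLEC7A transcript shares an unbroken run of 12 bases with the shRNA2 target, from position 5 to position 16 of the target counted from its 5′ end, and 14 of the 21 bases in all. The stretch lies in the 3′ UTR, in exon 6 of 6, at chr12:10117201-10117221 on the minus strand, and at bases 2098 to 2118 of the 2542 in the transcript. Of the 13 annotated CLEC7A transcripts 4 hold the run. Runs of at least 12 bases with this target were found in 63 of 19708 canonical protein-coding transcripts (0.32%), a number that includes SPINK2, and in 0.353% of the 3964 transcripts from 0.8 to 1.2 times as long. For the shRNA1 target the share at the same length was 0.528%. The run in CLEC7A was noticed first, in a search of 2 targets against 10 genes, so these shares are background and not a measure of how rare the match is. In the other 9 genes the longest run with the shRNA2 target had 6 to 8 bases, and with the shRNA1 target the longest run over all 10 genes was the 9 bases of CLEC10A. The run holds the word GCTCTCA, which was known from earlier results of these data, so its presence in CLEC7A is no separate finding. The word was searched on the transcript strand only. CLEC7A holds 2 copies of it, the other one in its 5′ UTR, and it also occurs once in CLEC4A, in the coding sequence, and once in CLEC2D, in the 3′ UTR. It was absent from the other 7 canonical transcripts and present in 21.2% of all canonical protein-coding transcripts. A shared run is a description of the letters. Its part in the level of CLEC7A was not tested.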

How the data were processed

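RNA of FUJIOKA cells was sequenced by the authors in 3 shNEG and 3 shSPINK2 libraries. Per the labels and the methods, reads were checked with FastQC, aligned to GRCh38 (hg38) with STAR 2.7.11, counted per gene with featureCounts and normalized with DESeq2 1.40.0. Strandedness, annotation release and handling of shared exons are not given in the sources used here. The authors' deposited table holds 1 usable value per gene, a signal that is the mean over the 6 libraries of reads divided by size factors. The remaining value columns (log2 fold changes, standard errors, statistics, p-values, adjusted p-values and up or down calls) are the authors' comparison and were not used, so no test between groups was made.

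Genes were matched by Ensembl ID without version to GENCODE release 44 (GRCh38), which matched 57577 of 63236 genes (91.1%). Levels per kilobase used merged exons. A gene was taken as detected at a mean of at least 10. Whole reads were recovered for means up to 60 by searching all sets of 6 whole numbers from 0 to 3 times the mean whose weighted sum equals the 15 printed digits, and kept where exactly 1 set was found. CLEC2D, with a mean under 200, was searched within 0.2 of its mean, a step chosen after seeing the data. Known reads were recovered when tested on simulated Poisson reads that all lay within the searched range. Reads outside that range, or more uneven than Poisson counts, were not simulated. Reads are not molecules, so intervals cover counting error only. Members, lists and the rule for named genes (all members, SPINK2, known partners and the 5 highest other lectins) were chosen with earlier results of these data known. ITGA11, KLRF1 and KLRB1 are among these partners. Genes of the chromosome 12 stretch, CLEC6A, ENSG00000284697 and single markers were named after their values were seen. Scripts ran in Python 3.11.15 with pandas 2.3.3, numpy 2.4.6, matplotlib 3.10.9 and scipy 1.17.1.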

Additional observations from a re-analysis of the deposited data

How the results depend on the processing

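The number of detected genes was 7 at a minimum mean of 10 and also at 50, and 9 at 1. CLEC10A lay close to the cut-off of 10, at 9.60 over all 6 libraries, 10.1 without library B and 10.5 without library E. CLEC2B held 49.5% of the summed level by mean and 55.7% per kilobase. The median level of the 10 genes was 342 per kilobase of merged exons, 362 by the length of the canonical transcript and 1117 by its coding length, both chosen after seeing the data. The planned coding length from protein sequences was not run. Reads were recovered for 3 genes under both search windows and under a tolerance 3 times as wide, and for 4 with the narrower search for CLEC2D. Over all 6 libraries the median variance to mean ratio of CLEC7A, CLEC10A and CLEC2D was 1.67, the value of CLEC10A. Leaving out each library in turn moved this median to between 1.26 and 2.05, and reads not divided by size factors gave 1.72. The value of CLEC2D was limited by its narrower search, and CLEC7A was selected on a difference between these libraries. This median of 3 genes is therefore no measure of the family. No paired analysis was possible because the mean carries no replicate number. The depth of each library is unknown, and 1 read in 1 library adds 0.161 to 0.169 to the mean, so levels near that of CLEC4A rest on single reads. CLEC5A shares 496 exon bases with MGAM on the opposite strand, which had a mean of 1170, CLEC12A shares 107 with CLEC1B, and CLEC2D shares 844 with the pseudogene NPM1P7 on its own strand. How reads there were assigned was not tested.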

Other observations

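SPINK2 reads fell into separate clusters, with 6, 9 and 7 reads in libraries A, E and F and 53, 63 and 56 in libraries B, C and D. The variance of its normalized reads was 23.6 times their mean, whereas the median over 570 genes with a mean from 28 to 37 was 1.55. SPINK2 is the gene targeted in the shSPINK2 libraries, so an uneven spread was built into the design. Its ratio is therefore a description and no finding. No group was assigned to the libraries from these values, and the reads of the lectin genes were neither averaged nor compared by them.

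KLRF1, the receptor gene for the CLEC2B ligand, had 22 reads in library A, 23 in B, 25 in C, 29 in D, 24 in E and 23 in F, with a variance of 0.262 times the mean.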
